A study of Mus musculus with 6 samples.

Results

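DNA methylation was described at the CpG sites around the interneuron transcription factor genes Dlx1, Dlx2, Dlx5 and Dlx6 in the mouse neocortex. CpGs were taken from 2 intervals of the genome build mm39, chr2:71340000-71390000 for the neighbours Dlx1 and Dlx2 and chr6:6845000-6895000 for the neighbours Dlx5 and Dlx6. A CpG entered when its merged strands had at least 10 reads in at least 2 samples of each genotype. This gave 344 CpGs of 864621 autosomal CpGs that met the same requirement, 241 in the Dlx1-Dlx2 interval and 103 in the Dlx5-Dlx6 interval. Of these, 154 and 68 were covered in all 6 samples.

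The samples were genomic DNA of neocortex from mice at postnatal day 5. There were 3 samples labelled WT (wild type) and 3 labelled Chd8+/-, heterozygous for Chd8, which encodes an ATP-dependent chromatin remodeller and is linked to autism. The labels give neither the kind of Chd8 allele, nor the strain or sex, nor whether each sample came from its own animal, so each p-value reflects scatter among these samples, some of which may be technical. The assay was reduced representation bisulfite sequencing (RRBS), which reads fragments next to MspI sites (CCGG), so stretches without a nearby site were not seen. The methylation level of a CpG is the percent of its reads that kept a cytosine after bisulfite treatment.

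Dlx genes encode homeodomain transcription factors related to fly Distal-less. In the embryonic ventral forebrain Dlx1 and Dlx2 are switched on in progenitors, Dlx5 and Dlx6 act after them, and together they direct the fate and migration of GABAergic interneurons, which move into the neocortex and there form a minority of the cells. The genes lie in pairs that are read toward each other and share enhancers between them. Many genes of this kind sit in broad stretches of low CpG methylation, called methylation valleys, which stay low in tissues where the gene is silent as well as where it is active.

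Coverage summed over listed CpG cytosines ran from 32285980 to 54818138 per library, with a median of 20 to 24 reads per cytosine, and was lower in each Chd8+/- library than in each WT library. At cytosines outside CpGs the WT libraries had an unconverted share of 0.319% ± 0.00289 (SD, n = 3) and the Chd8+/- libraries one of 0.341% ± 0.0117 (SD, n = 3), a difference of 0.0218 points (exact two-sided permutation test, p = 0.1, the smallest that 3 against 3 can give). Chromosome X held 2.56% and 2.58% of summed coverage in replicate 3 of both genotypes against 1.18% to 1.21% elsewhere. No CpG of Chd8 was examined, so the data hold no check of the genotype here.

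The promoters of Dlx1 and Dlx2 are shown because methylation at or near 0 was measured in them, and the capitals mark each CG that was measured by the coverage rule. The sequences are the 250 bases before the gene start from RefSeq (GRCm38.p6), written 5′ to 3′ on the gene's own strand. They were placed on mm39 by matching the spacing of their CGs to the positions of the listed CpGs, at chr2:71359539-71359788 on the plus strand for Dlx1 and at chr2:71377099-71377348 on the minus strand for Dlx2. For these stretches extended by 50 bases past the start, 18 of 27 CGs of Dlx1 and 24 of 29 CGs of Dlx2 met a listed CpG, against 6 and 5 at the next best place.
Dlx1 promoter: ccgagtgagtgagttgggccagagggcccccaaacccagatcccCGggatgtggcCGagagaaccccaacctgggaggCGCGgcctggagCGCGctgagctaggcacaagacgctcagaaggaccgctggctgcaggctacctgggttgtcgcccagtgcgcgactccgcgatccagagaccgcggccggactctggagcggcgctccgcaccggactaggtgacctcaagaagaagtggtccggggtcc
Dlx2 promoter: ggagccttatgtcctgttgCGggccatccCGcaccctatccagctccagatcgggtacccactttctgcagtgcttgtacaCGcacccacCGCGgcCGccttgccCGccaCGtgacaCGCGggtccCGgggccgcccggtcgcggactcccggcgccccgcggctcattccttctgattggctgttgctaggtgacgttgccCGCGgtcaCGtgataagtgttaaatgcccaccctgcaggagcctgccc
The Dlx1 stretch held 22 CGs, of which 6 were measured, and the Dlx2 stretch held 24, of which 14 were measured. Each has CCGG, the MspI site, at 4 and 3 places respectively, a sequence (its own reverse complement) that 47.1% of RefSeq promoters of this length hold. The starts lie 17309 bp apart. The promoter table held no sequence for Dlx5 or Dlx6, so their starts were not placed.

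The whole Dlx1-Dlx2 region was an unmethylated valley. With a valley defined as a run of at least 20 CpGs whose running median over 5 CpGs stayed under 10%, it reached from chr2:71358560, at -1229 bp from the Dlx1 start, to chr2:71377348, just upstream of Dlx2, and thus held both starts and all that lies between them. It spanned 18789 bp with 214 CpGs, a largest gap of 1934 bp between neighbouring CpGs, a mean level of 3.09% and a median of 0.855%. The Dlx5-Dlx6 valley reached from chr6:6849927 to chr6:6881893, a span of 31967 bp. It held 99 CpGs with a largest gap of 7402 bp, a mean level of 2.14% and a median of 0.596%. Its sampling was sparser: a median of 9 listed CpGs lay within 250 bp of a CpG of this valley, against 17 in the Dlx1-Dlx2 valley.

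**Figure D1:**
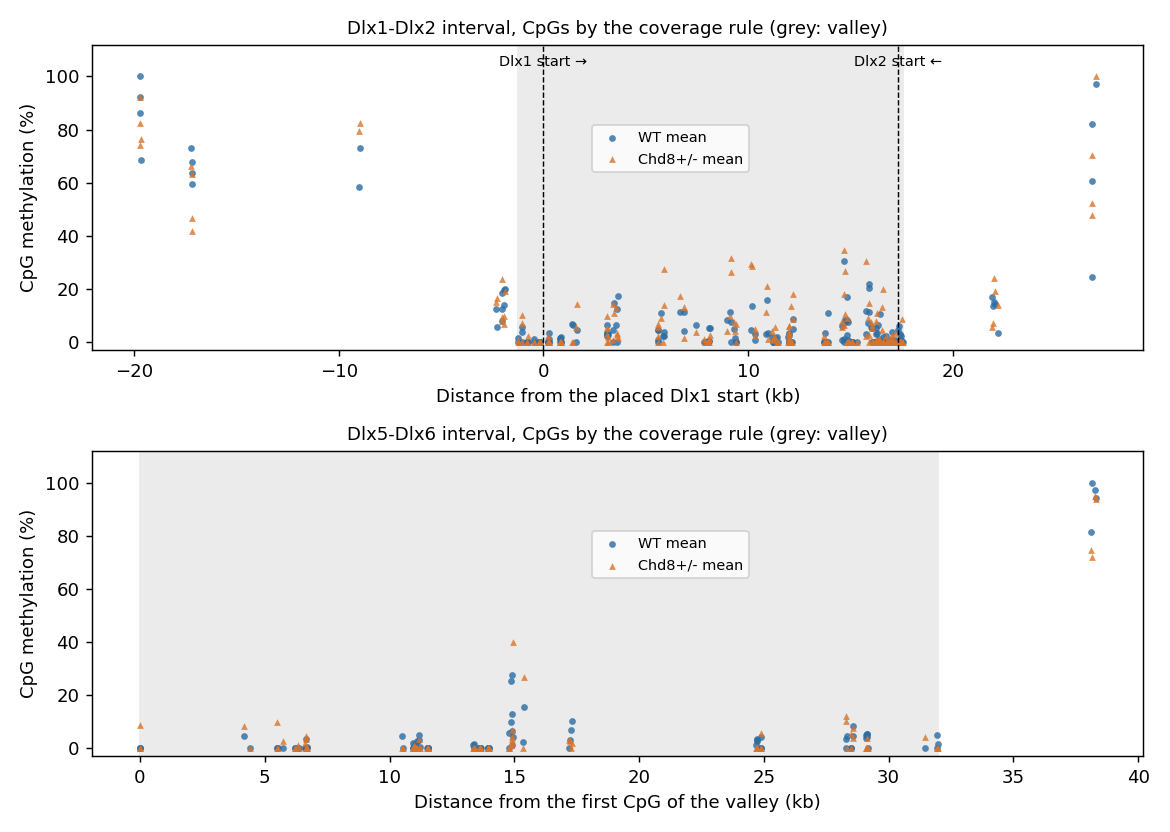
CpG methylation (percent, mean of the covered samples of each genotype) along the Dlx1-Dlx2 interval, by distance from the Dlx1 start in kb, and along the Dlx5-Dlx6 interval, by distance from the first CpG of the valley in kb. Circles are WT, triangles Chd8+/-, and grey marks the valley, in which the highest mean over all samples was 32.7% and 22.0% for the intervals in turn, while CpGs outside it reached 92.2% on the left and 98.7% on the right of Dlx1-Dlx2.

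Among valleys found by the same definition on the autosomes, both ranked high. When runs were broken at gaps over 10 kb there were 6694 valleys, with a median span of 1470 bp and a median of 32 CpGs. Of these, 109 (1.63%) were at least as long as the Dlx1-Dlx2 valley and 11 (0.164%) held as many CpGs. For the Dlx5-Dlx6 valley 20 (0.299%) were at least as long and 190 (2.84%) held as many CpGs. The length ranks depend on the gap limit: without it 16.2% and 8.68% of 6626 valleys were as long, since a run can then bridge DNA in which nothing was measured.

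Most CpGs of the valleys had hardly any methylated read. Of the 313 valley CpGs, 128 were at 0 in every sample that covered them, 84 of 214 at Dlx1-Dlx2 and 44 of 99 at Dlx5-Dlx6. Over all 344 Dlx CpGs the share at 0 was 37.2%, against 26.1% of autosomal CpGs. By mean level 201 valley CpGs were under 2%, 89 between 2% and 10%, 18 between 10% and 20% and 5 between 20% and 80%. Low levels are favoured by the definition of a valley, so these counts describe the valleys only. The low level extended to CpGs with few listed CpGs around them. That number depends on what RRBS covered as well as on the CpGs in the DNA. Among CpGs with 10 or fewer listed CpGs within 250 bp, the 153 Dlx CpGs had a median of 3.24% and 71.2% of them were under 10%, while 556716 such CpGs over the autosomes had a median of 81.1% and 12.8% were under 10%. With 11 or more listed CpGs, both medians were 0, the 191 Dlx CpGs averaged 1.9% and the autosomes averaged 7.53%. In this class Dlx CpGs were less often at exactly 0, at 50.8% against 65%.

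Within the Dlx1-Dlx2 valley the DNA around the gene starts was lower than the rest of the valley. All 6 measured CpGs of the placed Dlx1 promoter were at 0 in all 6 samples, with 0 of 617 reads methylated. At the 15 CpGs of the Dlx2 promoter 34 of 3851 reads (0.883%) were methylated and 9 CpGs were at 0 throughout, the highest single value being 17.8%. Averaged over the CpGs covered in all 6 samples, the DNA within 1 kb of the Dlx1 start was at 0.122% in WT and 0 in Chd8+/- (8 CpGs), and that within 1 kb of the Dlx2 start at 0.708% and 0.331% (30 CpGs). The 100 CpGs elsewhere in the valley were at 3.91% and 5.74%.

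Levels fell toward the left border of the Dlx1-Dlx2 valley across a stretch that was not measured. A step and a slope cannot be told apart there. From chr2:71340085 to chr2:71350809 the 10 measured CpGs had mean levels of 50.7% to 92.2%. After a stretch in which no CpG met the rule, the next 8 CpGs, at chr2:71357462 to chr2:71357893, were at 7.99% to 19.6%. They stand just outside the definition, since CpG 71358560 opens the run. The 4 border CpGs covered in every sample averaged 14.4%, 9.88% and 5.49% in the WT samples and 15.4%, 12.2% and 9.36% in the Chd8+/- samples. These ranges overlap.

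On the right, past Dlx2, 5 CpGs at chr2:71381695 to chr2:71381991 had mean levels of 8.61% to 19.6%. The 4 CpGs farther out were at 56.5% (71386580), 76.2% (71386599), 36.2% (71386610) and 98.7% (71386769). The middle pair lies 11 bp apart, so a high and an intermediate level lay within a few bases of each other. CpG 71386610 had 28.4%, 25.4% and 19.7% in WT and 52.8%, 34.0% and 56.9% in Chd8+/-, and its neighbour 71386599 had 90.7%, 88.0% and 67.5% in WT and 74.1%, 67.7% and 69.0% in Chd8+/-. The groups did not overlap at the former and overlapped at the latter. With a limit of 20% in place of 10%, the shoulders on both sides joined the valley, which then ran from chr2:71357462 to chr2:71381991 over 24530 bp.

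At Dlx5-Dlx6 methylated CpGs flanking the valley were seen inside the interval only on the right. After the last valley CpG, 6881893, the next CpGs were 6888023, 6888076, 6888204 and 6888223, with mean levels of 78.2%, 86.0%, 96.1% and 94.1%. On the left, the nearest 4 CpGs by the rule lay at chr6:6830584 to chr6:6830728, outside the interval, at 52.8% to 78.3%. The left and the right border therefore each fall somewhere in DNA where no CpG met the rule. Neither a limit of 20% nor a running median over 9 CpGs moved the ends of this valley.

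Few sites inside the valleys were partly methylated. The 5 CpGs with the highest mean in the Dlx1-Dlx2 valley were 71374495 at 32.7%, 71369977 at 21.2%, 71375553 at 21%, 71370693 at 18.6% and 71375682 at 18.4%. In the Dlx5-Dlx6 valley they were 6864864 at 22.0%, 6865324 at 21.1%, 6864828 at 17.3%, 6864811 at 13.2% and 6864833 at 8.18%. In DNA of mixed cells a level of this size can come from a share of the cells or from some copies within each cell, which cannot be told apart here.

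A single CpG was both partly methylated (20% to 80%) and CpG-dense, with 11 or more listed CpGs within 250 bp. It was 71374495, 2603 bp past the Dlx2 start and 14706 bp past the Dlx1 start, each along the gene's own strand. It had 18 listed CpGs around it and 38 to 85 reads per sample. The WT samples had 38.1%, 8.82% and 44.9% and the Chd8+/- samples 32.9%, 29.0% and 42.6%. WT replicate 2 was far below the other samples and the groups overlapped (difference 4.22 points, SE 11.8, exact two-sided permutation test, p = 0.9). The neighbouring CpG 71374489 was at 3.08%, 0 and 0 in WT and 15.1%, 7.32% and 32% in Chd8+/-. On the other side, 71374504 was at 3.12%, 6.15% and 13.0% in WT and 15.3%, 10.3% and 54.4% in Chd8+/-. The former was below 71374495 in 6 of 6 samples and the latter in 5 of 6, and Chd8+/- replicate 3 was the highest at each of these neighbours.

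In the Dlx1-Dlx2 valley 10 CpGs were above 0 in every sample that covered them, and in the Dlx5-Dlx6 valley there were 0. The 10 include 71366456, 71371970, 71374495, 71374504 and 71375553, whose levels varied widely between samples, and others with a narrower range. Of these, the most deeply read, 71375632, had 7.14%, 6.01% and 7.98% in WT and 10.3%, 6.28% and 10.1% in Chd8+/-. CpG 71374522 had 11.1%, 5.88% and 7.5% in WT and 11.8%, 9.76% and 10.2% in Chd8+/-. CpG 71370693 had 19.7%, 15.4% and 12.5% in WT and 17.5%, 22.6% and 23.7% in Chd8+/-. The genotypes overlapped at each of these last 3 CpGs.

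Other sites were high in 1 or a few libraries. At 71369950 and 71369977, Chd8+/- replicate 2 had 69.2% of 13 reads and 66.7% of 12 reads, and the other samples lay between 0 and 25.7%. At 6864864 Chd8+/- replicate 1 had 80% of 20 reads, against 0 to 9.38% in the other samples that covered it. In the Dlx5-Dlx6 valley 5 CpGs from 6864804 to 6864833 moved together in WT: CpG 6864811 had 0, 31.7% and 43.9% in WT and 0, 0 and 3.70% in Chd8+/-, and CpG 6864828 had 0, 50% and 33.3% in WT and 0, 0 and 20.4% in Chd8+/-. These CpGs lie within 30 bp of each other and are read by the same fragments, so they are not independent observations. RRBS reads were not marked as separate molecules in the sources used here, so few starting molecules may stand behind many reads.

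**Figure D2:**
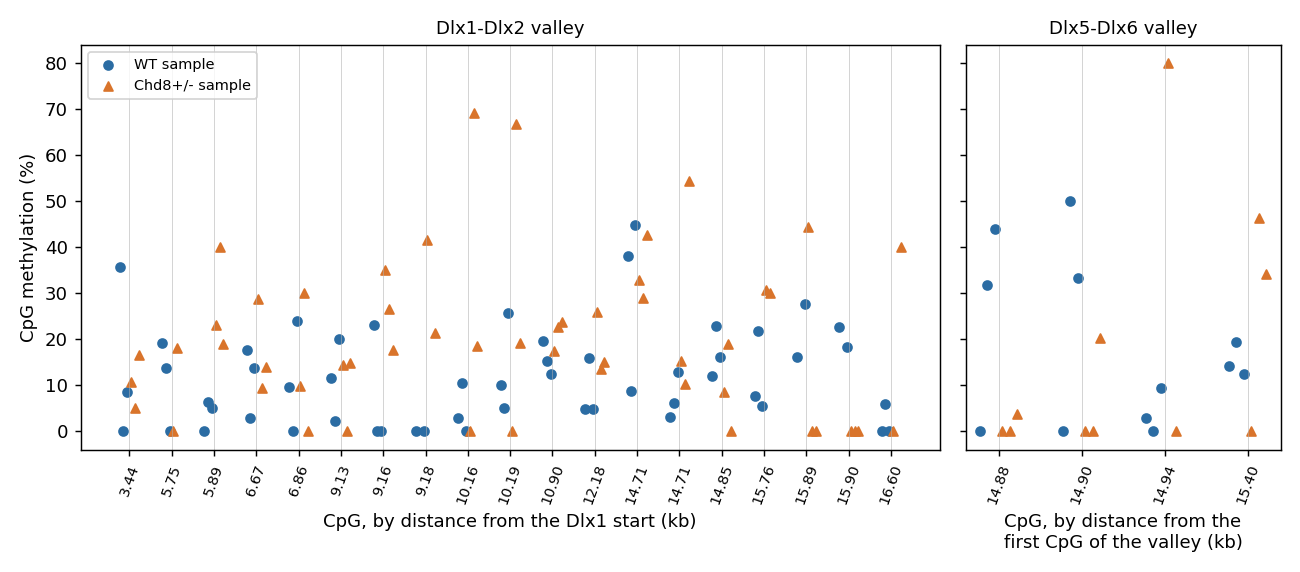
Methylation level (percent) in each sample at the valley CpGs with a mean of at least 10%, ordered by distance in kb from the Dlx1 start (left) or from the first CpG of the Dlx5-Dlx6 valley (right). Circles are WT and triangles Chd8+/- samples; single samples reach 69.2% and 80% where the others stay low, while CpG 71370693 of the Dlx1-Dlx2 valley lies between 12.5% and 23.7% in all 6.

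The spread between samples exceeded counting error in each of 4 classes of mean level under 80%, inside and outside the Dlx regions. Measured as chi-square per degree of freedom within genotypes, which is 1 for counting error alone, it was 2.65 at the 73 Dlx CpGs with a mean under 2% and a methylated read, against 2.26 at other autosomal CpGs of that level. For means of 2% to 10% it was 3.93 against 4.42, for 10% to 20% it was 5.73 against 5.26, and for 20% to 80% it was 3.54 against 5.87. The median range over samples of a Dlx CpG rose from 5 points under 2% to 39.7 points at 20% to 80%.

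The genotypes were first compared over whole valleys. Mean methylation of the Dlx1-Dlx2 valley, over 138 CpGs covered in all samples, was 3.17%, 3.05% and 2.77% in the WT samples and 3.92%, 4.22% and 4.55% in the Chd8+/- samples. In this mean each Chd8+/- sample was above each WT sample. With a minimum of 20 reads (1.11 points) or with CpGs weighted by reads (1.15 points) the groups overlapped (exact permutation test, p = 0.2 for both). The means were 3.00% ± 0.209 and 4.23% ± 0.317 (SD, n = 3 each), a difference of 1.23 points with an SE of 0.219 (exact two-sided permutation test, p = 0.1, the smallest that 3 against 3 can give, adjusted 0.5 over 5 such comparisons). The difference in the unweighted mean was larger than the spread between samples, its separation of the groups depended on the read minimum and the weighting, and no p in this design can pass a threshold of 0.05. Leaving out single samples gave 1.01 to 1.32 points. The difference in the unconverted share given above has the same direction and is smaller by far, and its part in this result was not tested.

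By zone, the CpGs away from the gene starts differed in the same direction as the whole valley. The 100 CpGs over 1 kb from both starts were at 4.21%, 3.98% and 3.55% in WT and 5.37%, 5.70% and 6.15% in Chd8+/-. The groups did not overlap (difference 1.83 points, SE 0.299, exact permutation test, p = 0.1, adjusted 0.15 over 3 zones). They overlapped with a minimum of 20 reads (1.71 points) and when weighted by reads (1.49 points), with an exact permutation p = 0.2 for both. Within 1 kb of the Dlx2 start the values were 0.560%, 0.667% and 0.897% in WT and 0.125%, 0.431% and 0.436% in Chd8+/-, a difference of -0.38 points (SE 0.143, exact permutation test, p = 0.1, adjusted 0.15). That direction rests on which CpGs are averaged: with the 60 CpGs covered in at least 2 samples per genotype the difference was 0.166 points, and without Chd8+/- replicate 2 it was 0.611 points over 41 CpGs. Within 1 kb of the Dlx1 start 5 of 6 samples were at 0 and WT replicate 2 was at 0.368%. These zones were drawn after the data were seen.

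**Figure D3:**
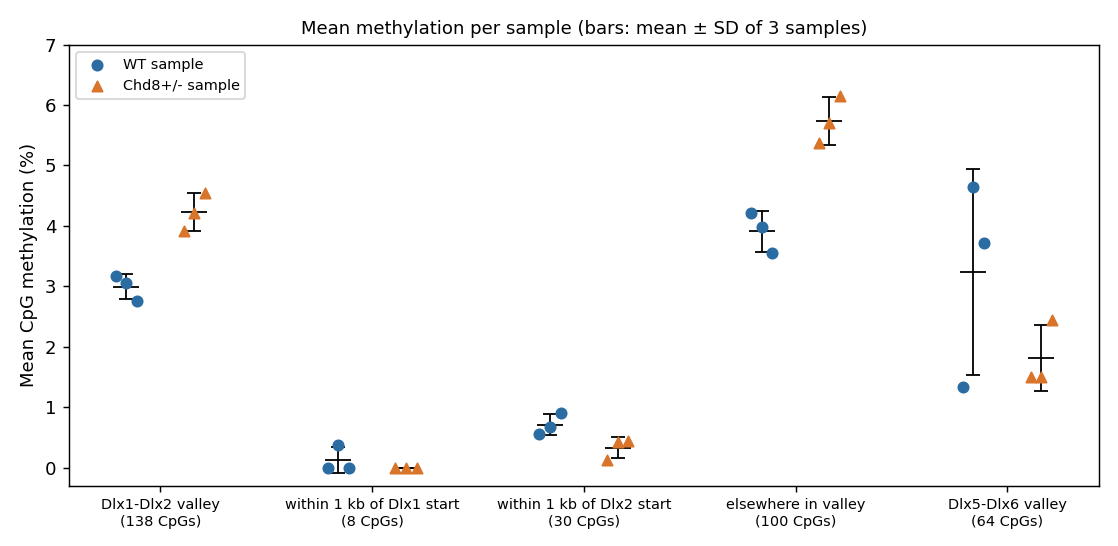
Mean CpG methylation (percent) of each sample over the Dlx1-Dlx2 valley, its 3 zones and the Dlx5-Dlx6 valley, with the number of CpGs averaged. Circles are WT and triangles Chd8+/- samples, and bars give the mean ± SD of 3 samples; the groups are apart in the Dlx1-Dlx2 valley (2.77% to 3.17% against 3.92% to 4.55%) and overlap in the Dlx5-Dlx6 valley.

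The Dlx1-Dlx2 difference came from several places and was in part carried by 1 window. It was not a rise at most CpGs. Of the 214 valley CpGs, 71 were higher, 59 lower and 84 equal in Chd8+/-, with a median difference of 0. Leaving out chr2:71369001-71370000, where 5 CpGs differed by 9.86 points and which holds the pair of CpGs high in Chd8+/- replicate 2, lowered the valley difference to 0.910 points. The Chd8+/- samples were then at 3.81%, 3.34% and 4.39% and the WT samples at 3.12%, 3.02% and 2.66%, still without overlap. With each of the 18 windows left out in turn the difference ran from 0.910 to 1.51 points. Among density classes of the valley the difference was 3.44, 1.61, 1.49 and -0.11 points for 1 to 5, 6 to 10, 11 to 20 and over 20 listed CpGs within 250 bp, and the groups overlapped in every class.

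The Dlx5-Dlx6 valley showed another picture. Over 64 CpGs the WT samples were at 1.34%, 4.64% and 3.71% and the Chd8+/- samples at 1.50%, 1.51% and 2.44%. WT replicates 2 and 3 were high, while WT replicate 1 was the lowest of all samples. The means were 3.23% ± 1.70 and 1.82% ± 0.541 (SD, n = 3 each), a difference of -1.42 points with an SE of 1.03 (exact two-sided permutation test, p = 0.4, adjusted 0.625). Without WT replicate 2 the difference was -0.55 points. Without the window chr6:6864001-6865000, which holds the CpGs high in WT replicates 2 and 3, it was -0.44 points. The genotypes did not differ beyond the spread between samples. Much of the size of the valley difference came from this window, while its sign stayed negative without it. Of the valley CpGs, 36 were lower, 19 higher and 44 equal in Chd8+/-. With a minimum of 20 reads the difference was -1.95 points (exact permutation test, p = 0.2).

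Averaged outside the valleys, the genotypes did not differ beyond the spread. The 16 CpGs of the Dlx1-Dlx2 interval averaged 33.3%, 32.3% and 34.7% in WT and 36.4%, 28.8% and 30.1% in Chd8+/- (difference -1.66 points, SE 2.43, exact permutation test, p = 0.5). Of the 27 single CpGs outside the Dlx1-Dlx2 valley, 2 were higher and 3 lower in Chd8+/- without overlap. Over the autosomes 4.07% of CpGs were higher and 2.97% lower in this way, and 27 CpGs are too few to compare with those shares. At 71381991, on the right border, the WT samples had 4.35%, 2.15% and 3.81% and the Chd8+/- samples 12%, 13.5% and 15.9%, with no call in the edgeR test. The 4 CpGs past Dlx5-Dlx6 averaged 90.4%, 92.7% and 96.7% in WT and 90.9%, 70.8% and 89.9% in Chd8+/- (difference -9.39 points, SE 6.78, exact permutation test, p = 0.2). The low value of Chd8+/- replicate 2 came with CpG 6888076, where that sample had 30% of 10 reads and the others 86.1% to 100.0%.

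The valley differences were set beside those of 343 valleys that had 50 or more CpGs covered in all samples. Their median difference was 0.106 points, 214 were higher and 129 lower in Chd8+/-. In 28 of them (8.16%) each Chd8+/- sample was above each WT sample, as in the Dlx1-Dlx2 valley, and in 11 (3.21%) each was below. A rise at least as large as that of the Dlx1-Dlx2 valley was found in 11 (3.21%) and a fall at least as large as that of the Dlx5-Dlx6 valley in 2 (0.583%), the Dlx valleys themselves included. Among 107 such valleys with a WT level of 2% to 5%, the shares were 6.54% and 1.87%. Among 603 valleys of 10 kb or more they were 9.29% and 3.48%, and among all 5797 valleys with at least 10 CpGs in all samples 5.62% and 2.78%. The comparison with other valleys was added after the data were seen and describes them without a test.

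**Figure D4:**
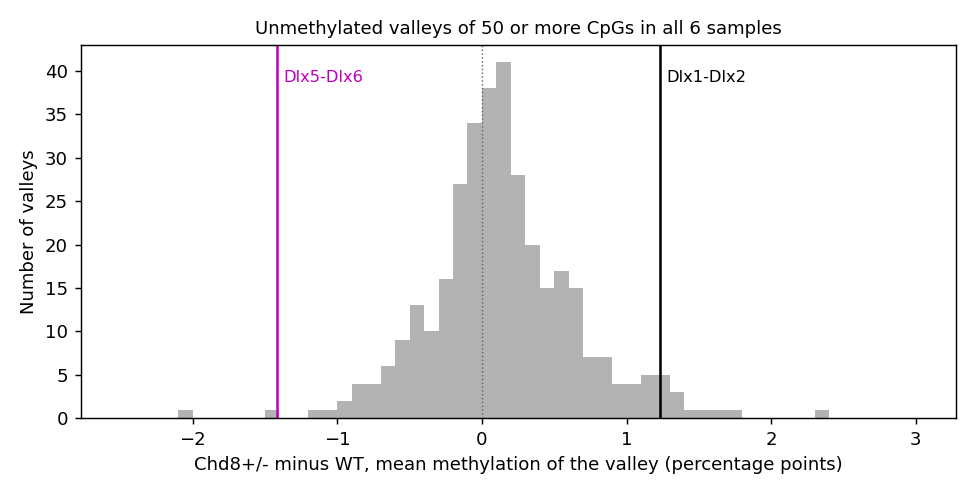
Difference in mean methylation (Chd8+/- minus WT, percentage points) of 343 unmethylated valleys with 50 or more CpGs covered in all 6 samples, as a histogram of the number of valleys. Lines mark the Dlx1-Dlx2 valley at 1.23 points and the Dlx5-Dlx6 valley at -1.42 points, both toward the ends of a distribution centred at 0.106 points.

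CpG by CpG, 7 of the 241 Dlx1-Dlx2 CpGs were higher in each covered Chd8+/- sample than in each WT sample, and 5 were lower. Over the autosomes 4.07% were higher and 2.97% lower in this way, so the share at Dlx1-Dlx2 was near the background. In the Dlx5-Dlx6 interval 0 of 103 CpGs were higher and 1 was lower.

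In the edgeR quasi-likelihood test on methylated and unmethylated reads, 0 of 609673 autosomal CpGs passed a Benjamini-Hochberg adjusted p of 0.05 (0.0%), the smallest adjusted p being 0.179. At an unadjusted p under 0.05 it gave 18509 CpGs (3.04%), of which 5 were among the 157 Dlx1-Dlx2 CpGs tested and 2 among the 59 Dlx5-Dlx6 CpGs. limma also called 0, and gave 31183 at an unadjusted p under 0.05. The Dlx counts were near the background of 3.04%.

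The Dlx CpGs with the smallest p in each direction are named here without a call, each with an edgeR adjusted p of 1. Higher in Chd8+/- at Dlx1-Dlx2 were 71374489, 71374479 and 71374368, with edgeR log2 odds ratios of 4.37, 4.99 and 3.14. CpG 71374479 was at 0 in all WT samples and at 9.20%, 0 and 10.4% in Chd8+/-. Lower were 71376154, 71361197 and 71375688, with log2 odds ratios of -3.65, -4.50 and -5.63. A ratio of this size at a CpG with hardly any methylated read rests on few reads. CpG 71376154 was at 6.83%, 1.37% and 11% in WT and at 0, 0 and 1.20% in Chd8+/-.

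At Dlx5-Dlx6 the lower ones were 6864811, 6888076 and 6874645, with log2 odds ratios of -4.25, -5.41 and -3.53. The higher ones were 6856575, 6856589 and 6855423, with log2 odds ratios of 3.73, 3.61 and 4.32. Each of these 3 was at 0 in all WT samples. At 6856575 Chd8+/- replicate 2 had 13.8% and the other samples 0, and at 6856589 Chd8+/- replicate 1 had 10.9% and the other samples 0.

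Fixed windows of 1000 bp gave the same outcome. Of 102017 windows 0 passed (0.0%) by edgeR, with a smallest adjusted p of 1, and 3641 (3.57%) had an unadjusted p under 0.05, while limma called 0 with 5215. This included 1 of 23 windows at Dlx1-Dlx2 and 1 of 13 at Dlx5-Dlx6. The former, chr2:71373001-71374000 with 9 CpGs, was at 1.11%, 4.28% and 2.10% in WT and 0, 0 and 0.833% in Chd8+/- (edgeR adjusted p = 1). The latter, chr6:6855001-6856000 with 4 CpGs, was at 0 in all WT samples and at 7.38%, 0.735% and 0.926% in Chd8+/- (edgeR adjusted p = 1).

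Promoters of other genes of the interneuron programme were placed by the same spacing method. The list for interneurons and ventral forebrain held 23 genes beside the 4 Dlx genes described above, with Dlx3 and Dlx4 among the 23. Of these 23, 17 had a sequence, 10 were placed and 7 had at least 3 CpGs covered in all samples. Among these 7, 6 had a WT level under 2%, against 87.8% of 4790 placed promoters. Prox1, a transcription factor of caudal interneurons, was at 0 in all samples, and Lhx6, which acts in medial ganglionic eminence interneurons, was at 0.173% in WT and 0.416% in Chd8+/-. Of 12 genes of the cortical excitatory lineage 4 had a level, each under 2% in WT, with the excitatory lineage factor Emx1 at 0 in all samples. Both lists were near the share of all placed promoters.

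The exception was Npas1, a bHLH-PAS transcription factor that restrains the production of some interneurons, placed at chr7:16210656-16210955. Its 8 CpGs averaged 7.90%, 12.5% and 8.96% in WT and 13.3%, 13.7% and 15.4% in Chd8+/-, a difference of 4.34 points. The groups did not overlap in this 1 of 7 genes, against 1.73% of placed promoters that were higher without overlap and 3.61% that were lower. For comparison, over the 9 CpGs of the Dlx2 promoter covered in all samples the WT samples had 0, 1.32% and 0.817% and the Chd8+/- samples 0 each. A Dlx2 promoter CpG that not all samples covered, 71377318, had 17.6% of 34 reads in Chd8+/- replicate 2. The window chr2:71377001-71378000, which holds this promoter, has 17 CpGs. It was at 0, 1.38% and 1.41% in WT and at 0, 1.17% and 0 in Chd8+/-, so methylated reads there came from both genotypes.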

How the data were processed

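Per the labels' protocols, neocortex DNA was cut with MspI, ligated, size-selected, converted with bisulfite and amplified. Bismark 0.20.0, Trim Galore 0.4.4 and SAMtools 1.9, with the build mm39, are listed in the submitters' processing notes. Their settings, and whether duplicates were removed, are not given in the sources used here. The authors deposited coverage as a count of reads per cytosine, with the lowest listed value at 10, and the shares of cytosine and thymine as percent, per the file headers. Conversion at cytosines outside CpGs came from the authors' deposited conversion statistics.

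Methylated reads were coverage times percent, rounded, and strands were merged by adding reads. Levels per sample were unweighted means over CpGs with 10 reads in all 6 samples, compared by exact two-sided permutation tests. The edgeR 4.0.16 quasi-likelihood test (R 4.3.3) was fitted over all autosomal CpGs, and over windows with at least 3 CpGs, with a coverage term per sample. CpGs at 0% or 100% in all samples were left out. limma 3.58.1 used log2 of methylated plus 1 over unmethylated plus 1. The tests were tested on simulated counts. Python 3.11.15, pandas 2.3.3 and matplotlib 3.10.9 did the rest.

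Named CpGs were the valley ends, the border CpGs, the 5 highest of each valley, the partly methylated CpG-dense ones and the 3 with the smallest p in each direction. The windows of smallest p were named too. The CpGs in 6864804 to 6864833, 71369950, 71374504, 71377318 and the CpGs above 0 in every sample were named after their values were seen. The intervals, lists and tests were chosen with earlier results of these data known. No mm39 genome or annotation was used. RefSeq promoters (GRCm38.p6, 300 bases) were placed by CG spacing alone, with no coordinates converted: 9784 of 32851 (29.8%) were placed, and 95.3% of them had the same displacement as a neighbour. Exons, introns and untranslated regions were not assigned.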

Additional observations from a re-analysis of the deposited data

How the results depend on the processing

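The Dlx1-Dlx2 valley difference stayed positive under every alternative run. Leaving out single windows gave 0.910 to 1.51 points, and leaving out single samples gave 1.01 to 1.32. The groups overlapped with a minimum of 20 reads (1.11) and when weighted by reads (1.15), each with an exact p = 0.2. The Dlx5-Dlx6 valley difference stayed negative, but single samples moved it from -2.36 (without WT replicate 1) to -0.547 (without WT replicate 2), and it was -0.70 over CpGs covered in at least 2 samples per genotype. The difference outside the Dlx1-Dlx2 valley turned from -1.66 to 1.1 when weighted by reads and to 1.58 without Chd8+/- replicate 2, with single samples left out giving -3.96 to 1.58, and was -6.09 over 7 CpGs with the valley limit at 20%. That outside Dlx5-Dlx6 ran from -12.9 to -2.85, the latter without Chd8+/- replicate 2. The partly methylated CpG-dense site ran from -6.67 (without WT replicate 2) to 11.3 (without WT replicate 3), and over the 4 CpGs with means of 10% to 90% the difference was 6.32 points. Within 1 kb of the Dlx1 start the difference was -0.12 points, and leaving out single samples gave -0.382 to 0.202 (without WT replicate 2). Within 1 kb of the Dlx2 start single samples left out gave -0.451 to 0.611 (without Chd8+/- replicate 2), and CpGs covered in at least 2 samples per genotype gave 0.166. The cause of these changes was not tested.

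Genome-wide edgeR calls were 0 to 3 CpGs when single samples were left out, with 1 without Chd8+/- replicate 1 and 3 without Chd8+/- replicate 3, and 0 windows; the Dlx intervals had 0 calls in each. Fisher's exact test on reads pooled within a genotype, which ignores the spread between samples by construction, passed 150974 CpGs (33 at Dlx1-Dlx2, 12 at Dlx5-Dlx6) and 34283 windows (7 and 8), and 13 of the 14 named CpGs and windows. A minimum of 20 reads left no CpG outside the Dlx5-Dlx6 valley, and no partly methylated CpG had 21 listed CpGs nearby. With the replicate block the valley differences were 1.23 (exact p = 0.25, the smallest that sign flips of 3 pairs can give) and -1.42 (exact p = 0.5). Those outside were -1.66 and -9.39, the dense site was 4.22, and edgeR called 0 CpGs and 0 windows. Same-numbered samples did not deviate together (r = 0.00456, 0.000833 and 0.00233 over 534921 CpGs), so by this measure the numbers do not pair the samples, although replicate 3 of both genotypes had the higher share of chromosome X. WT replicates 1 and 3 correlated best with their own number and WT replicate 2 did not. CpGs with 10 reads have steps of 10 points, and DNA far from MspI sites was not seen.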
